A study of Drosophila melanogaster with 2 samples.

Results

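The 8 genes described here encode transcriptional corepressors and subunits of histone deacetylase and remodelling complexes: gro, CtBP, MEP-1, Mi-2, Sin3A, HDAC1 (also written Rpd3), Smr and CoRest. They were taken by name, and are 8 of 13968 protein-coding genes on the chromosome arms. A summit, the position of highest signal in a peak, was counted at a gene when it lay in the gene or within 2 kb of it. The data are chromatin immunoprecipitation sequencing (ChIP-seq) peaks from whole Drosophila melanogaster embryos collected over 0 to 24 h of development, so every tissue of the embryo is mixed. All embryos came from the strain ttk-GFP, in which an insertion targeting tramtrack (ttk) makes an eGFP fusion protein. The immunoprecipitation used an antibody against GFP, whereas the labels give ttk as the antibody. There was 1 group of 2 libraries, labelled as separate biological replicates. No control library and no second condition were analysed here, so no contrast between conditions was available and no test was made. The labels do not say whether the fusion carries both protein isoforms of ttk.

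Tramtrack is a BTB zinc-finger protein that represses transcription. Repressors of this kind can recruit corepressors, which bridge the DNA-bound factor to enzymes that remove acetyl groups from histones or move nucleosomes. Tramtrack has been reported to bind CtBP, and MEP-1 together with Mi-2, so some of the genes below encode its own known partners. Groucho (gro) is the founding member of the Groucho/TLE corepressors and acts with Hairy-type factors downstream of Notch, among others. CtBP is a dehydrogenase-like corepressor for short-range repressors. Mi-2 is the ATPase of the NuRD remodelling complex, and MEP-1 is a zinc-finger protein that forms the dMec complex with it. Sin3A is the scaffold of the Sin3 complex, HDAC1 is the deacetylase that NuRD, Sin3 and CoREST complexes share, Smr (SMRTER) is a corepressor of nuclear receptors and of Su(H), and CoRest is the partner of the histone demethylase LSD1.

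The bases under 8 of the summits are shown first, because they carry the positions that the values below refer to. Each is 101 bases centred on the summit, on the + strand of dm6, from the NCBI RefSeq sequence of that assembly. Capitals mark matches to CGATA, the core of the motif bound by the insulator protein BEAF-32, and to GAGAG, the repeat bound by GAGA factor, on either strand. The gro and Mi-2 windows are the strongest peaks of the set, the MEP-1 pair shows 3 CGATA matches in one window and a G-rich stretch in the other, and the HDAC1 window lies in a neighbouring gene. The Smr pair lies 603 bp apart in the same intron, and the CtBP window comes from a peak of the larger list only.
gro chr3R:26042460-26042560: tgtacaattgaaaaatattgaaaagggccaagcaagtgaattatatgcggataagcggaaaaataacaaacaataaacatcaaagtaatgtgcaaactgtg
Mi-2 chr3L:19903223-19903323: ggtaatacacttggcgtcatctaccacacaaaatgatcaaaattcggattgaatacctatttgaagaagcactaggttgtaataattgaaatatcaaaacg
MEP-1 chr3L:2635604-2635704: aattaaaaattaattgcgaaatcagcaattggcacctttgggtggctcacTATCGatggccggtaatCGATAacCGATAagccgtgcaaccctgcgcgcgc
MEP-1 chr3L:2632916-2633016: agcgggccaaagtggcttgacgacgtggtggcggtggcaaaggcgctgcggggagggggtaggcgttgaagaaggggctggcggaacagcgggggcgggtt
HDAC1 chr3L:4624829-4624929: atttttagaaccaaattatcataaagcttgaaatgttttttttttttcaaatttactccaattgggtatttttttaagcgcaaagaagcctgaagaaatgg
Smr chrX:12734957-12735057: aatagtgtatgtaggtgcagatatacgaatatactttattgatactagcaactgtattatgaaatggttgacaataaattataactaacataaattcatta
Smr chrX:12735560-12735660: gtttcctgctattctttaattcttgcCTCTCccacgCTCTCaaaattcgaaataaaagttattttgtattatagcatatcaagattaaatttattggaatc
CtBP chr3R:13012485-13012585: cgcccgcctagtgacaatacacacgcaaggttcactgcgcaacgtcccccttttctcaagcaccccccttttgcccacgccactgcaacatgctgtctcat

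Several peak lists were read. The conservative list of the authors held 3815 peaks on the arms and was made from both replicates, and their larger list held 4691. A ranked list from both replicates held 126870 peaks with a score from the irreproducible discovery rate (IDR), a measure of how well the ranks of a peak agree between a pair of lists. Each replicate also had a ranked and a thresholded list of its own, with 91354 and 3201 peaks on the arms for replicate 1, and 114366 and 2976 for replicate 2. Every peak in the conservative list had a score of at least 830. Another 83 ranked peaks on the arms also reached 830 but are absent from the conservative list, and they are called left-out peaks below. Signal is the authors' own value for a peak, and ranks are within one list. The files hold no read counts, so depth is unknown and no counting interval could be given.

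Tramtrack-GFP had conservative summits at 5 of the 8 genes (62.5%): gro, MEP-1, Mi-2, HDAC1 and Smr. CtBP, Sin3A and CoRest had none. Of all protein-coding genes, 28.2% had a conservative summit by the same rule. Long genes hold more summits: in 4 length classes of equal number, from the shortest genes to the longest, the share was 15.7%, 23.7%, 28.8% and 44.8%. HDAC1 falls in the third class, and the other 7 genes are in the longest, of which 4 had a summit. Set against the share of their own length class, 4 of 7 is not far from the background, and nothing is read from it about corepressor genes as a class.

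The lists differ on the remaining genes. With the left-out peaks added, Sin3A joined and 6 of the 8 genes (75%) had a summit, beside 28.6% of all genes. In the larger list CtBP joined instead, again giving 6 of 8, beside 31.9% of all genes. CoRest was the only one of the 8 with no summit in the conservative, left-out, larger or thresholded replicate lists. At promoters, counted as within 500 bp of an annotated transcription start site (TSS), gro and MEP-1 had a conservative summit. That is 2 of 8 genes (25%), beside 14.2% of all protein-coding genes. With the left-out peaks Sin3A made it 3 of 8 (37.5%), beside 14.5%. A summit at any TSS of a gene counts, and gro has 4 annotated TSSs and MEP-1 has 5. The promoter shares were not set against genes with as many TSSs, and nothing is read from them.

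**Figure D1:**
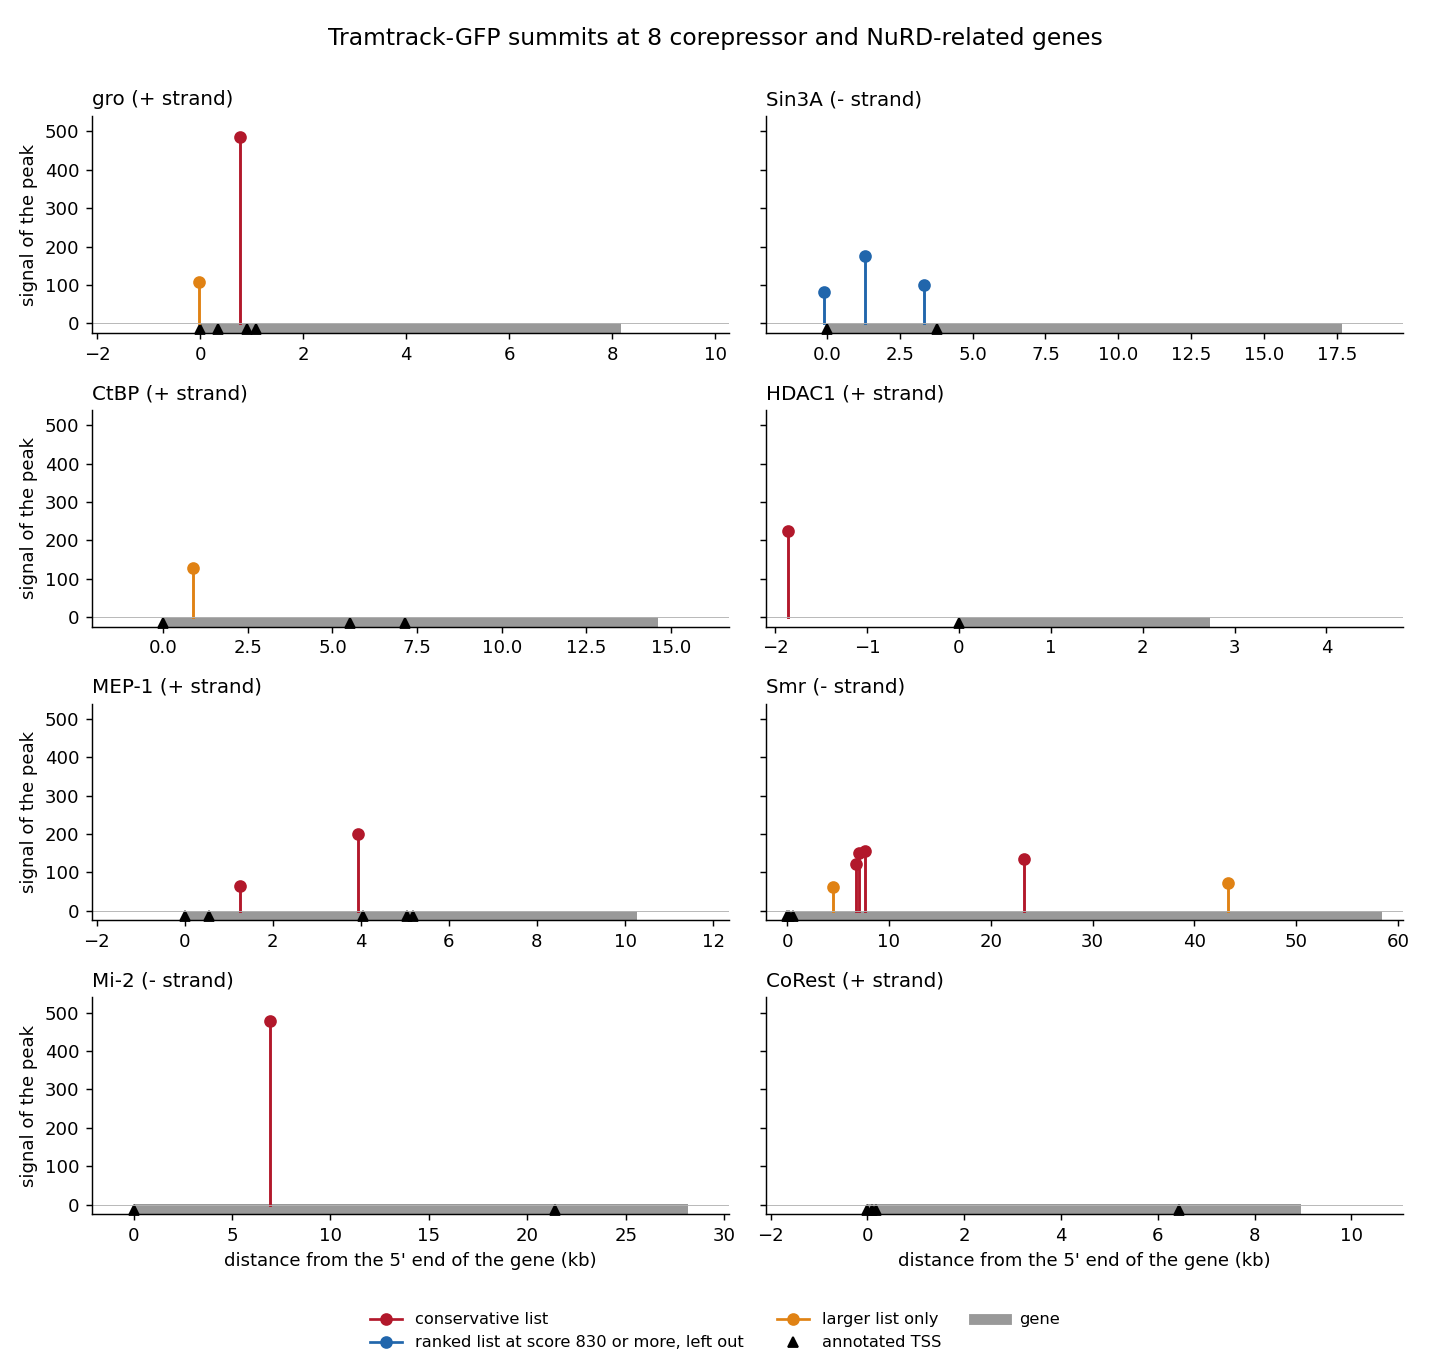
Each panel is one gene, with distance from its 5′ end in kb along the direction of transcription on the horizontal axis and the authors' signal of each peak on the vertical axis. Stems are summits, coloured by list; triangles are annotated TSSs and the grey bar is the gene. The tallest stems are the single conservative summits of gro (486) and Mi-2 (477), Smr has several of 121 to 157, and CoRest has none.

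The 5 genes held 9 conservative summits, or 8 when the overlapping pair of peaks at Smr is counted once. Of the 9, 8 lay inside the gene and all 8 of those were in introns. All 8 also lay in the 5′ part of the gene, between 0.095 and 0.398 of its length from the 5′ end. Over all 2410 pairs of a conservative summit and a protein-coding gene that contains it, the median position was 0.308 and 70% were in the 5′-most 50%.

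Groucho had the strongest summit of the set. The peak at gro (chr3R:26042405-26042613, summit 26042510) had a signal of 486 and rank 178 of 3815. Replicate 1 gave it 233, at rank 223 of its own list, and replicate 2 gave it 248, at rank 168. The replicates were close, with a log2 ratio of replicate 1 to replicate 2 of -0.09, against an SD of 0.49 over 3579 conservative peaks that have a match in both replicate lists. The summit lay in intron 1, 774 bp from the 5′ end of the gene and 131 bp upstream of the third of its 4 annotated TSSs. A second peak sat 19 bp upstream of the first TSS (chr3R:26041545-26041888, summit 26041717), and had 107, from 60.1 in replicate 1 and 28.5 in replicate 2. It is in the larger list only: its score in the ranked list of both replicates was 822, just under 830. So the peak inside gro was the stronger one, and the peak at the first TSS was in the thresholded list of replicate 1 but not of replicate 2.

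Mi-2 had a single conservative summit of nearly the same signal (chr3L:19903176-19903382, summit 19903273), 477 with rank 184. It lay in intron 1, 6942 bp from the 5′ end of this gene of 28165 bp . The gene Su(Tpl), which encodes the elongation factor ELL, is annotated on the same span, and its TSS, 6137 bp away, is the nearest one. The paired columns of the ranked list give the peak signals of 257 and 214. These columns carry no replicate name, but over the conservative peaks the first equals replicate 1's own signal, to within 0.001, at 3674 of 3674 that have one, and the second equals replicate 2's at 3624 of 3624. In replicate 1's own list the signal was 257 with rank 187. Replicate 2's own ranked list had no summit there, and none at all between positions 19886540 and 19911478, a stretch of 24938 bp. The median distance between neighbouring summits in that list was 703 bp, and 480 such stretches of 20 kb or more occurred across it. The thresholded list of replicate 1 held 2 summits at Mi-2 and that of replicate 2 held 0. The paired value therefore exists for a peak that the replicate's own list does not hold, and why was not tested.

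MEP-1 had a pair of conservative summits, 1 strong and 1 weak. The strong one (chr3L:2635482-2635825, summit 2635654) had a signal of 201 and rank 934, with 118 in replicate 1 and 85.8 in replicate 2. The replicates differed by a log2 ratio of 0.47, within the SD of 0.49. It lay 3939 bp into the gene, in intron 2 or 3 depending on the transcript, and 108 bp upstream of an internal MEP-1 TSS. The weak one (chr3L:2632794-2633137, summit 2632966) had a signal of 64.6 and rank 3576 of 3815, with 36.6 and 31.9 in the replicates. Its score of 848 was just inside the limit of 830, and it was in neither replicate's thresholded list. Both lie on the span of a further annotated gene, CG42245.

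HDAC1, the shortest of the 8 genes at 2734 bp, had a summit outside it. The peak (chr3L:4624707-4625050, summit 4624879) had a signal of 224 and rank 785, with 113 in replicate 1 and 104 in replicate 2, a log2 ratio of 0.12. It lay 1855 bp upstream of the HDAC1 TSS, in an intron of Src64B, a Src-family tyrosine kinase gene, and 1253 bp from the nearest Src64B TSS. HDAC1 counts as having a summit only through the 2 kb flank, and the peak lists cannot say which of the genes, if either, the peak concerns.

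Smr, the longest gene at 58416 bp, had 4 conservative summits, all in introns. The thresholded list of replicate 2 also held 4 summits at Smr, but that of replicate 1 held 2. Of the 3944 protein-coding genes with a conservative summit, 192 (4.87%) had 4 or more, and the median was 1. The strongest (chrX:12734835-12735178, summit 12735007) had a signal of 157, with 83.9 and 83.3 in the replicates. The next (chrX:12735438-12735781, summit 12735610) had 151; replicate 1 had no summit within 150 bp, and replicate 2 had 78.7. Its neighbour 201 bp away (chrX:12735726-12735831, summit 12735811) overlapped it and had 121, with 67 in replicate 1 and 38.3 in replicate 2. The paired columns of the ranked list gave 67 and 78.7 at summit 12735610, so the same value of 67 stands at both overlapping peaks. These 3 summits formed a cluster 6807 to 7611 bp from the 5′ end. The fourth (chrX:12719187-12719530, summit 12719359) stood alone at 23259 bp, with a signal of 134 (60.7 and 66.2 in the replicates), and lies on the span of the noncoding RNA gene lncRNA:CR43963. The larger list added weaker summits at 12699261, with a signal of 72.4, and at 12738134, with 63.3.

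Sin3A stood apart from the other genes, since all of its peaks with a score of 830 or more were left-out peaks. There were 3 of them, each with the top score of 1000 in the ranked list of both replicates, and none was in either replicate's thresholded list. The strongest (chr2R:12591439-12591782, summit 12591611) had a signal of 175, with 122 in replicate 1 and 56.2 in replicate 2. Its log2 ratio of 1.11 is outside the range of -0.66 to 0.94 that holds the middle of the conservative peaks, from the 5th to the 95th percentile. The second (chr2R:12589412-12589755, summit 12589584) had 100, with 54.7 and 53.4, and lay 432 bp upstream of an internal Sin3A TSS. This second summit also lies on the span of the noncoding RNA gene lncRNA:CR30055. The third (chr2R:12592855-12593198, summit 12593027) had 81.2, with 44.3 and 43.3, and lay 110 bp upstream of the first TSS. Of the 83 left-out peaks on the arms, 81 are also absent from the larger list; the sources used here do not say why they were left out.

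CtBP, one of the reported partners of Tramtrack, had summits in replicate 1's own lists but none in those of replicate 2. Its one peak (chr3R:13012363-13012706, summit 13012535) was in the larger list, with a signal of 127, and lay in intron 1, 886 bp from the 5′ end. The larger list was made from both replicates. Replicate 1 had the peak with a signal of 72.2 and rank 1831, and how much of the 127 came from replicate 2 is not given. Replicate 2 had no summit at CtBP, nor did the ranked list of both replicates, although replicate 1 had 14 there. In replicate 2 the stretch without any summit ran from 13008100 to 13034151, or 26051 bp, past both ends of the gene. Among the 3492 genes of the longest class, 8.05% had no ranked summit in replicate 2, 7.65% had none in the list of both replicates and 2.46% had none in replicate 1. Replicate 2's own list thus gives no value for CtBP, high or low, and the cause was not tested.

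CoRest differs from CtBP in that every ranked list held summits there. Its locus held 16 summits in the ranked list of both replicates, 8 in replicate 1 and 16 in replicate 2. None had a score near 830. The strongest had a signal of 35.9 and a score of 43, with paired signals of 31.6 and 8.49, and lay 171 bp upstream of the 5′ end of the gene. The highest score at CoRest was 155. The strongest ranked signal of a gene had a median of 52.4 over the genes that have one. CoRest stood at percentile 26.5 of all 13968 protein-coding genes, where the 1640 without a ranked summit were placed at the bottom. On the same scale gro stood at percentile 97.5, Mi-2 at 97.4, HDAC1 at 90.9, MEP-1 at 89.4, Sin3A at 87.4 and Smr at 85.7. Each percentile rests on the strongest of all ranked summits at a locus, 54 of them at Smr, and none was set against a length class. All of these genes except Sin3A were already counted above for a conservative summit.

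**Figure D2:**
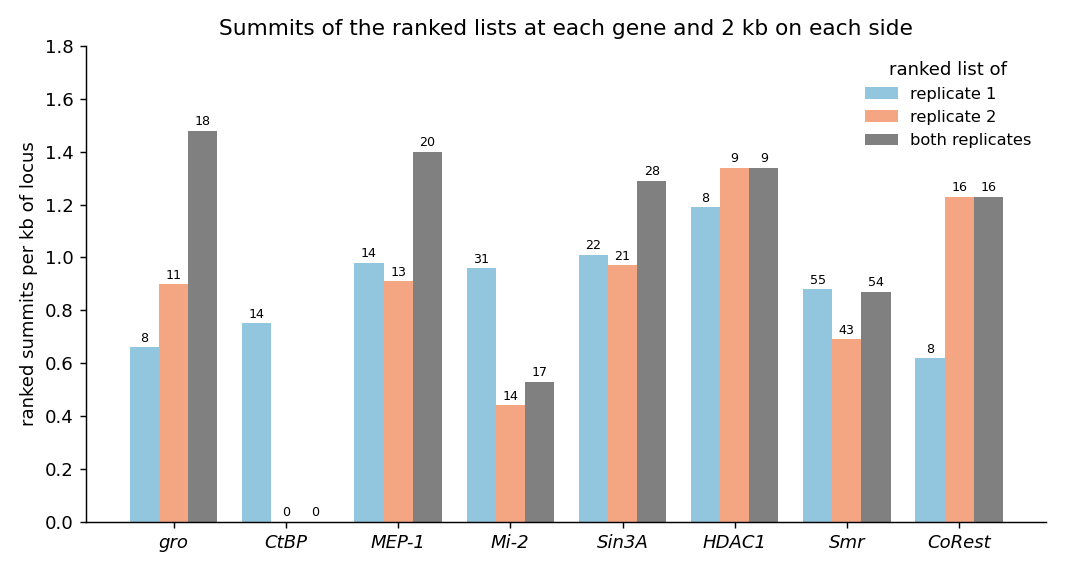
Bars give ranked summits per kb of each locus (the gene and 2 kb on each side), in the ranked lists of replicate 1, replicate 2 and both replicates, with the number of summits above each bar. CtBP has 14 summits in replicate 1 and 0 in both other lists; Mi-2 has 31 in replicate 1 and 14 in replicate 2, and CoRest has summits in every list.

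Ordered by the strongest conservative signal, the genes ran gro (486), Mi-2 (477), HDAC1 (224), MEP-1 (201) and Smr (157). The replicate signals of gro, 233 and 248, lie within the paired signals of Mi-2, 257 and 214. By these values the pair is not separated beyond its spread. The 214 comes only from the paired columns, since replicate 2's own list holds no Mi-2 summit there. Likewise HDAC1, with 113 and 104, lies within MEP-1, with 118 and 85.8. The step from Mi-2 to HDAC1 is larger than the spread of either, while Smr, with 83.9 and 83.3, lies just below the lower value of MEP-1. Of the 9 conservative summits, 7 were above the list's median signal of 122, the weak MEP-1 summit was far below it, and the weakest Smr summit, at 121, just under it.

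**Figure D3:**
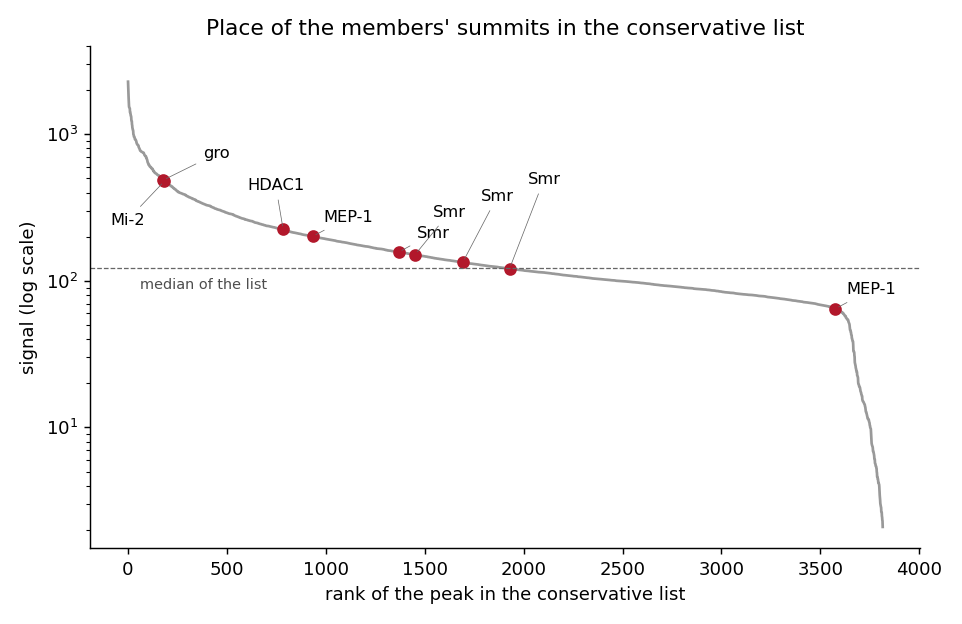
The grey line is the authors' signal (log scale) of all 3815 conservative peaks in order of rank, and the red points are the 9 summits at the corepressor genes. The gro and Mi-2 summits sit together at ranks 178 and 184, and 1 MEP-1 summit sits near the end of the list at rank 3576.

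Of the 9 conservative summits, 7 had a summit within 150 bp in both replicates' ranked lists, beside 93.8% of all conservative peaks. In both thresholded lists 5 of the 9 had one, beside 54.2%. The exceptions among the ranked lists were Mi-2 and the Smr summit at 12735610. Among the 7, replicate 1 stood to replicate 2 at log2 ratios between -0.13 and 0.81, both at Smr. All 7 lay within the 5th to 95th percentile of the conservative peaks, whose median was 0.15.

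**Figure D4:**
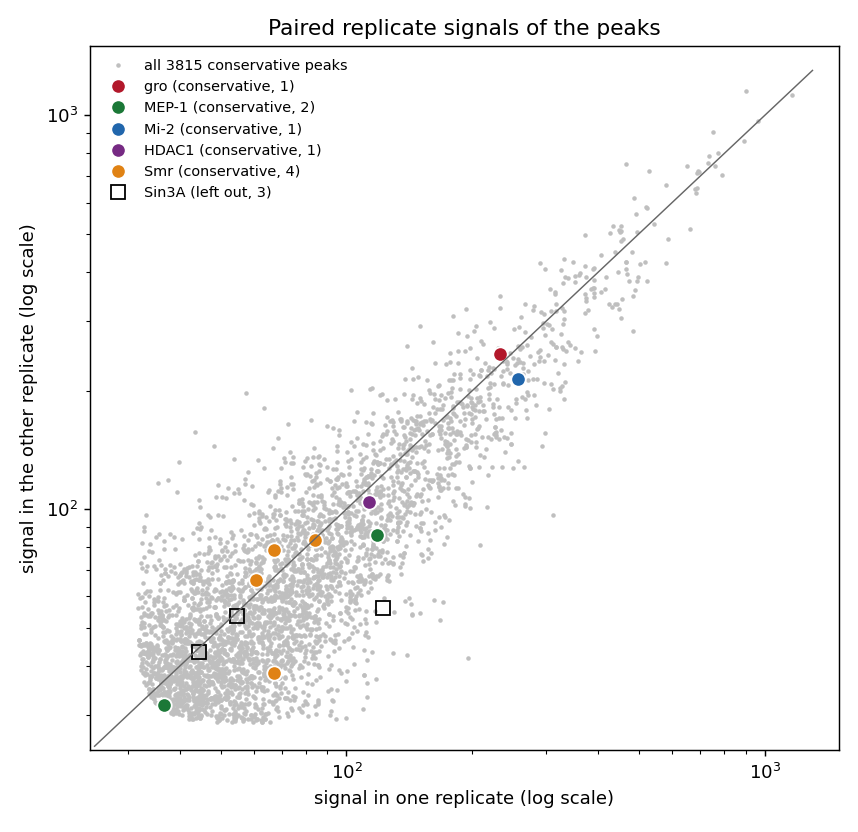
Each grey point is a conservative peak, placed by its signal in one replicate and in the other (both axes log scale; the paired columns carry no replicate name), and the line marks equal signals. The corepressor summits lie within the cloud of peaks, with gro and Mi-2 in its upper part, while one of the 3 left-out Sin3A peaks (open squares), with 122 and 56.2, lies to the right of the line.

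Matches to 8 short motifs were counted on either strand within 100 bp of each summit. AGGAC, the core of the site reported for Tramtrack, was under none of the 9 summits, beside 9.36% of all 3815 conservative summits and 13% of 19275 TSS windows of the same length. GGTCCT, which overlaps AGGAC on the other strand, was also under none, beside 1.42% of all summits and 2.91% of TSS windows. AGGGCGG or AGGGTGG, which do not contain AGGAC, were under none, beside 2.83% and 1.76%. GAGAG was under 2 of the 9, the weak MEP-1 summit and Smr 12735610, beside 24% of all summits and 25% of TSS windows. CGATA was also under 2, the strong MEP-1 summit and HDAC1, beside 25.8% and 37.1%. The matches at MEP-1 were 3 in number, 2, 19 and 26 bp from the summit, as the sequence above shows. Such a count of 3 or more in one window was found at 2.57% of conservative summits and 7.8% of TSS windows. The larger-list peak at the first gro TSS also held 3 CGATA matches. TATCGATA, which contains CGATA, and CACGTG and GGTCACACT were under none of the 9, beside 2.39%, 1.97% and 1.1% of all summits and 6.44%, 2.8% and 4.42% of TSS windows. Outside the conservative list, the Sin3A summit at 12589584 held AGGAC within GGTCCT, and 5 matches to GAGAG. The larger-list Smr summit at 12699261 also held AGGAC, and the CtBP summit held 3 matches to GAGAG. A match is only a run of letters in the window, and an absent one says only that the letters are not there.

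Base composition varied widely among the summits. The GC content within 100 bp was 65.2% at the weak MEP-1 summit and 43.3% at the strong one, 40.3% at gro, 36.3% at Mi-2 and 29.9% at HDAC1. The 4 conservative Smr summits ran from 25.4% to 38.3%. The median over all conservative summits was 35.3%, so the group lies on both sides of it.

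The wider set of genes of these pathways was a list of 42 partners, of which 41 were found in the annotation. Of these, 17 (41.5%) had a conservative summit in the gene or within 2 kb, beside 28.2% of all protein-coding genes. At a promoter 5 of the 41 (12.2%) had one, beside 14.2% of all protein-coding genes. The genes were not matched for length, and the strongest summit was nearest to the gene's own TSS in 9 of the 17 and nearest to another gene's in the other 8.

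Among NuRD genes and others grouped with them, 3 of 6 had a summit. Caf1-55, the histone-binding subunit also found in other chromatin complexes, had the strongest peak of these partners, with a signal of 1496 and rank 10, 790 in replicate 1 and 706 in replicate 2. That peak lay 128 bp upstream of mRpS10, a mitochondrial ribosomal protein gene, and outside Caf1-55. simj, the p66 subunit, had 6 summits, the strongest with 468 in an intron, and MTA1-like had 69.5, at 77 bp upstream of CG31548. MBD-like, CDK2AP1 and Iswi had none. Of the Sin3 genes 3 of 8 had one, each outside the gene and next to another gene's TSS. MRG15, a chromodomain protein, had 467 at the promoter of Cp190, an insulator protein gene; Sds3 had 125 at RpS10b and Sap130 had 100 at Sf3a2.

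Of the CoREST and LINT genes 2 of 5 had a summit. chn had 5, with a strongest signal of 327 at 160 bp upstream of a chn TSS. l(3)mbt had 104, outside the gene and 16 bp upstream of CG5934, whose TSS is the nearest. Su(var)3-3, the LSD1 demethylase, had none. Among the SMRTER partners and other deacetylases 3 of 6 had a summit, namely ebi with 177, Sirt1 with 136 and HDAC4 with 109. The ebi summit lay outside the gene and 121 bp upstream of AP-2alpha, whose TSS is the nearest. Of the other corepressors, Atrophin (Atro, annotated as Gug) had 689 in an intron with 371 and 315 in the replicates, and bon had 209, so 2 of 4. Of the DNA-binding recruiters 4 of 12 had one. They were zfh1, whose protein binds CtBP, with 325, ttk itself with 197 and 7 summits, EcR, the ecdysone receptor that Smr binds, with 175, and brk, whose protein binds Groucho and CtBP, with 138.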

How the data were processed

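ChIP-seq peak lists of 2 biological replicates were analysed as the authors deposited them, in dm6 coordinates per the labels. Chromatin was sonicated to 200 to 800 bp per the labels' protocols. Each deposited list gives a signal and an IDR score per peak, with a normalization not given in the sources used here; likewise the aligner and the peak caller. The lists were called per replicate and over both replicates, and the listing of the thresholded lists names a further source, not used here. Genes and TSSs came from the Ensembl BDGP6 annotation, and all 8 genes have the same coordinates in the NCBI annotation. Coordinates are 1-based.

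Summits were counted in a gene or within 2 kb of it, and at promoters within 500 bp of a TSS. The signal in each replicate is that of the nearest summit within 150 bp in its own ranked list. Motifs were matched within 100 bp of a summit. The counting steps were checked on simulated peaks placed at known genes. The genes, the partner list and the motifs were chosen with earlier results of these data known, so they have no test. All 8 genes are named, and partners where they have a summit. Work was done in Python 3.11.15 with pandas 2.3.3, numpy 2.4.6, matplotlib 3.10.9 and scipy 1.17.1.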

Additional observations from a re-analysis of the deposited data

How the results depend on the processing

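With other lists, flanks and windows, the number of the 8 genes with a summit ran from 4 to 6 beside 5. It was 4 when HDAC1 lost its summit with no flank or a flank of 1 kb. Each replicate's own thresholded list in place of both gave 4 to 6 genes, 7 to 9 summits, 17 to 18 partner genes and 2 to 2 promoters: without replicate 1 Mi-2 had 0 summits and MEP-1 had 1 in place of 2, and without replicate 2 CtBP had 1, gro 2, MEP-1 1, Mi-2 2 and Smr 2 in place of 4. Partner genes with a summit fell from 17 to 8 with no flank, when 10.1% of all protein-coding genes had one. With 50 bp to each side of the summit, GAGAG and CGATA were each under 1 of the 9 summits instead of 2. Matched summits in both replicates were 6 at 50 bp, 8 at 300 bp and 9 by the paired columns, an alternative chosen after seeing the data, beside 7. Those 9 include both overlapping Smr summits, which share the same value of 67 in the first paired column. Over the counts that sum all genes or summits, 43 of 46 recounts stayed within 1.5 times and 3 moved, namely the partner genes with no flank and both motifs at 50 bp. The 43 include the motifs under none of the 9 summits within 100 bp, which could only stay at 0 within 50 bp. Among the summits per gene, the signals and the shares of all protein-coding genes, 80 recounts stayed and 27 moved. Here the summits per gene kept the limit of 1.5 times, and a signal had to be equal. A share had to lie within the exact binomial interval of the main share. A wider window cannot change the nearest summit once one is found, so the signals had little room to move. No paired analysis was possible because there is 1 group. Without read counts, depth sets no limit that could be stated here.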
